A study of Mus musculus with 13 samples.

Results

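The glycolysis and hypoxia genes described here are 34 mouse genes chosen by name, 1 probe each, among 25393 genes measured on 13 arrays of colorectal tissue. They comprise 15 glycolytic enzymes, 5 glucose transporters and switch enzymes, the hypoxia regulator Hif1a and 13 genes known to be induced by low oxygen. A probe belonged to a member when its gene name in the scanner files equalled the member's name, and the brightest such probe stood for the gene. All 34 members were found, and all 34 were well above background on all 13 arrays, so the filter on dim probes removed none of them.

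Samples came from CPC-Apc mice (CDX2P-NLS Cre;Apc+/loxP), in which a Cre recombinase driven by the CDX2 promoter deletes 1 floxed Apc allele, a model of spontaneous colorectal tumors. The deletion is limited to cells in which that promoter is active, and all 4 groups carry it. The groups were tumors of mice injected with microRNAs (2 arrays), tumors of control mice (7 arrays), normal tissue of mice injected with microRNAs (2 arrays) and normal tissue of control mice (2 arrays). Injections into the tail vein began at 8 weeks of age and were given 3 times a week, 24 in all, in super carbonate apatite (sCA) particles with albumin. The microRNA mice received miR-200c, miR-302 (-a, -b, -c and -d) and miR-369 (-3p and -5p) at 25 µg each. The control mice are taken to have received a commensurate amount of negative control microRNA, which their array labels name only by the abbreviation NC. Tissue was collected at sacrifice and divided into normal and tumor tissue, and the labels do not tie samples to animals. The p-values below therefore measure the spread between these samples, several of which may share an animal.

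Glycolysis converts glucose to pyruvate in the cytosol. Glucose enters through transporters of the Slc2a family, is phosphorylated by hexokinases, passes the committed step at phosphofructokinase and, when pyruvate is not oxidised, ends as lactate through lactate dehydrogenase. Under low oxygen the prolyl hydroxylases encoded by the Egln genes no longer mark the subunit HIF-1 alpha, encoded by Hif1a, for destruction, and HIF-1 then activates many glycolytic genes together with genes for angiogenesis, mitophagy and collagen processing. HIF-1 alpha is controlled mainly at the protein level, which these arrays did not measure. Higher glycolytic enzyme expression is a well-known feature of many tumors, and normal colonic surface epithelium lies in a region of naturally low oxygen.

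Each level below is the log2 processed signal of a probe minus the log2 of the 75th percentile of its array, so a value of 0 equals that percentile. A difference is tumor minus normal unless another is named, and "called" means a Benjamini-Hochberg adjusted p under 0.05 in limma over all 25393 genes. Levels of different probes are not comparable with each other. The 75th percentile was 415 to 740 signal units on the 9 tumor arrays and 214 to 320 on the 4 normal arrays, and scaling removed this difference. The share of probes well above background lay between 50.7% and 57.0% on the 13 arrays, no member was saturated, and the number of arrays limits the precision. The arrays lay on 2 slides: slide 1 held 6 control tumors, microRNA tumor 2 and microRNA normal 2, and slide 2 held the other 5 arrays, both control normals among them. A number in the array file names, whose meaning the labels do not give, was shared by microRNA tumor 1 with microRNA normal 1, microRNA tumor 2 with microRNA normal 2, control tumor 3 with control normal 2, control tumors 1 and 2, and control tumors 4 to 7. The female-specific RNA Xist read 0.45 and 1.97 log2 in control normal 2 and control tumor 3 and -7.19 to -5.80 on the other 11 arrays. These 2 samples, which also share a file name number, thus stood apart from the rest. Arrays that share a number entered the main tests as separate samples. The Apc probe did not separate the groups (log2 difference 0.02 between tumors and normal tissue, limma adjusted p = 0.943), which does not check the deletion, since the position of the probe relative to the deleted part is not known here.

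Markers of several cell types differed between the tissues. Over both groups of mice, 11.7% of all genes were called higher in tumors and 19.7% lower. The mean level of the colonocyte list, led by Car1 and Car4, was 0.48 to 5.26 log2 in tumors and 5.85 to 6.81 in normal tissue, with 7 of 7 markers called lower. The colon epithelium list (Epcam, Cdh1) averaged 4.92 to 6.30 in tumors and 6.11 to 6.72 in normal tissue. In this list 3 of 7 were called lower (Krt8, Krt19 and Cdx2), and neither Epcam (-0.28) nor Cdh1 (-0.22) was called. The proliferation list (Mki67, Top2a) averaged 2.05 to 2.88 in tumors and 1.20 to 1.65 in normal tissue (6 of 6 higher). The neutrophil list (S100a8, S100a9) averaged 0.50 to 2.62 in tumors and -2.12 to -1.39 in normal tissue (6 of 7 higher). The macrophage list (Cd68, Csf1r) averaged 0.84 to 1.86 in tumors and 0.26 to 0.84 in normal tissue. In it 1 of 7 was called higher, close to the share of all genes. Every tumor was below every normal sample in the list means of smooth muscle (Acta2, Myh11; 7 of 7 lower), skeletal muscle (Acta1, Ckm; 5 of 5), adipocytes (Adipoq, Cfd; 6 of 6) and neurons and glia (Uchl1, Elavl4; 5 of 7). The squamous list (Krt5, Krt14) averaged -0.31 and 1.23 in the control normals and -3.68 to -2.41 on the other 11 arrays. In such bulk tissue, fewer cells of a type and less RNA per cell cannot be told apart. The part of these cell types in the results below was not tested.

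Tumors and normal tissue were first compared over both groups of mice, with the treatment of the mouse as a covariate. In tumors 7 of 15 glycolytic enzymes fell, and 6 of 13 hypoxia-induced genes rose. Of the 34 members, 18 were called: 7 rose (Ddit4, Adm, Anln, P4ha2, Hif1a, Egln3 and Kdm3a), 11 fell (Pfkl, Pfkp, Pfkfb4, Pfkm, Gpi1, Aldoa, Ndrg1, Hk1, Ldha, Slc2a1 and Egln1), and 16 were not called. Of all genes, 31.4% were called, 11.7% higher and 19.7% lower. The called share of the members was thus above that of all genes, and their split between directions was close to that of all genes. All members were well above background on all 13 arrays, while a gene needed 2 arrays to be tested. The members were not compared with genes of like brightness, so the higher share cannot be read as particular to them. In 8 members the tumors did not overlap with the normal samples (5 higher, 3 lower), as in 17.4% of all genes. Leaving out 1 array moved the count of 18 members most for control normal 2 (7 members called), microRNA normal 1 (10) and microRNA tumor 2 (11), and 7 members (Ddit4, Anln, P4ha2, Pfkfb4, Pfkm, Pfkp and Hk1) were called whichever of the 13 arrays was left out. Without control normal 2 and control tumor 3 together, the arrays with Xist signal, 7 members were called over both groups of mice. Within slide 2 alone 8 members were called, and within slide 1, which holds 1 normal array, 0 were called by limma (3 had an unadjusted p under 0.05, and 10 of all genes were called), while all 18 kept their sign within each slide.

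**Figure D1:**
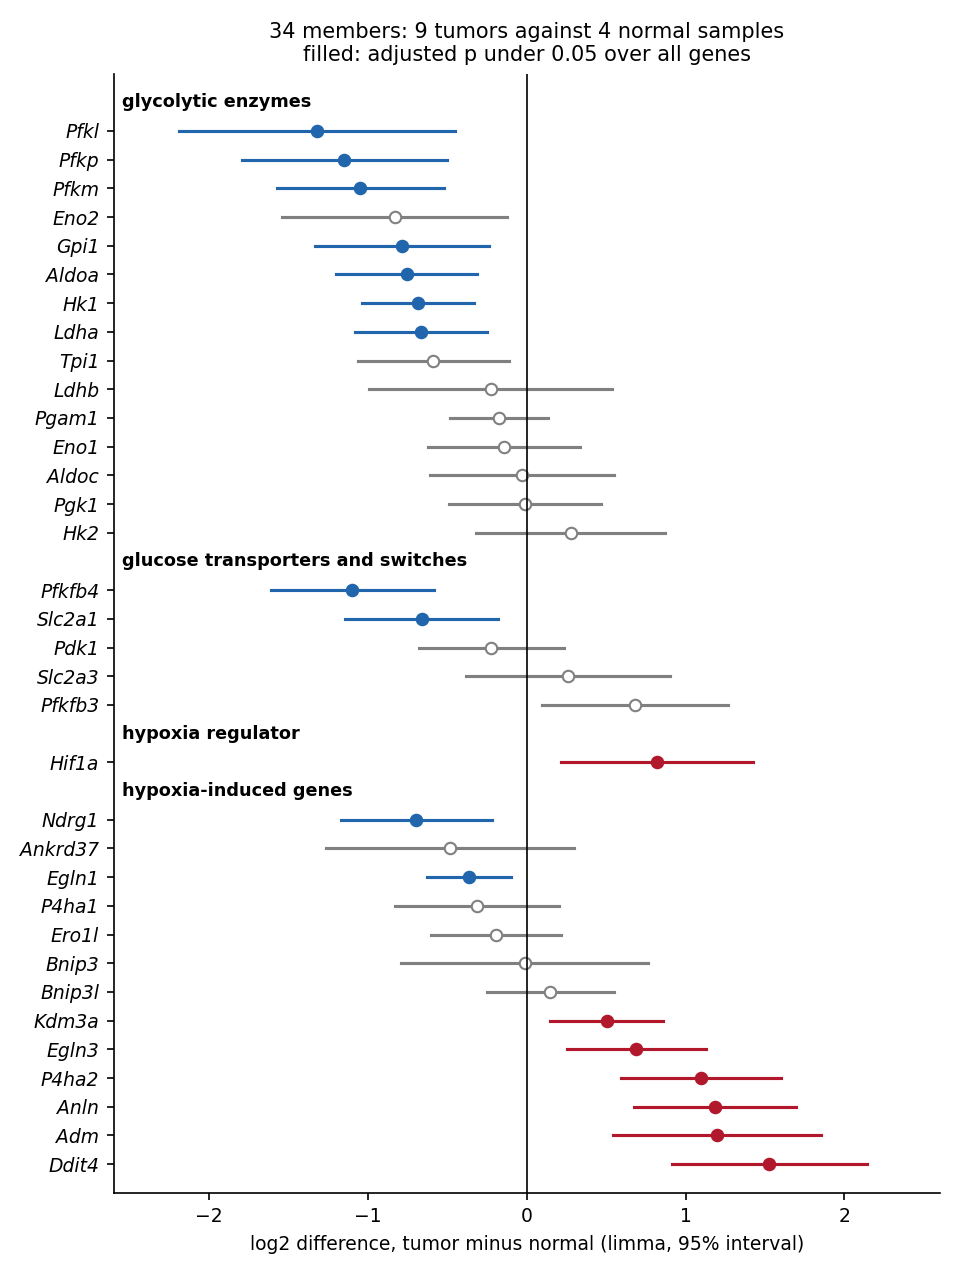
Log2 difference between 9 tumors and 4 normal samples for each of the 34 members, with its 95% interval, ordered by size within each role; filled points passed an adjusted p under 0.05 over all genes. Glycolytic enzymes lie to the left of 0 except Hk2, at 0.28, and the hypoxia-induced genes run from -0.70 for Ndrg1 to 1.53 for Ddit4.

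The direction of these counts depends on how arrays are scaled to each other. The split was 7 higher and 11 lower with the 75th percentile, 6 and 4 with median scaling, 7 and 6 with quantile normalization, and 20 and 0 in the deposited values with no scaling, where the median of all genes was itself 0.89 log2 higher in tumors. The median of all genes was -0.11 in the 75th percentile scale, and the differences of members are read against it. Of the 7 higher members, 6 were called higher under all 4 of normexp background correction, quantile normalization, median scaling and no scaling, and Hif1a missed the threshold with median scaling (adjusted p = 0.062 in limma). Of the 11 lower members, 4 (Pfkl, Pfkm, Pfkp and Pfkfb4) were called lower under the first 3 of these, and 7 had a positive difference in the values with no scaling.

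Of all genes, 11.7% were called higher and 19.7% lower. Among the 15 glycolytic enzymes, none rose, 7 fell and 8 were not called. Their median log2 difference was -0.66, against -0.11 for all genes, and 14 of the 15 were below 0. The count of 7 was 3 without control normal 2 (also when control tumor 3 was left out with it), 4 without microRNA normal 1, 3 with median scaling and 4 with quantile normalization, under which the median was -0.18. Under normexp, quantile normalization and median scaling, the differences of the 7 called enzymes all stayed below 0.

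The phosphofructokinases, which catalyse the committed step, carried the largest decreases among the enzymes. Pfkl, the liver-type subunit (probe NM_008826, mm9 chromosome 10 from 77450926 to 77450985), lay between 0.97 and 3.04 log2 in the 9 tumors (median 1.22), against 2.52 and 2.99 in the microRNA normals and 2.06 and 3.36 in the control normals. Control tumors 1 and 5, at 2.48 and 3.04, lay within the range of the normal samples, and the other 7 tumors lay below it. The log2 difference was -1.32 (SE 0.40, limma adjusted p = 0.0261), equal to a 2.50-fold lower signal.

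Pfkm, the muscle-type subunit (NM_021514, mm9 chromosome 15 from 97962713 to 97962772), had levels from -0.93 to 0.19 in tumors (median -0.33). The normal samples had 0.51 and 0.54 in microRNA mice and 1.04 and 0.91 in control mice. Every tumor was below every normal sample, the only enzyme of the 15 for which this held, and the log2 difference was -1.05 (SE 0.24, limma adjusted p = 0.00825). Non-overlap of this direction held for 10.5% of all genes. Pfkm is the main form in muscle, and the smooth muscle list averaged 1.30 to 4.10 in tumors and 4.79 to 6.06 in normal tissue, its skeletal counterpart -5.33 to -3.86 and -3.22 to -0.42; their part in the Pfkm result was not tested.

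Pfkp, the platelet-type subunit (NM_019703, chromosome 13), ranged from 0.26 to 1.97 in tumors (median 1.30), against 2.78 and 2.73 in microRNA normals and 2.24 and 1.92 in control normals. Only control tumor 1 reached the normal range, and control tumors 6 and 7 were lowest at 0.44 and 0.26. The log2 difference was -1.15 (SE 0.30, limma adjusted p = 0.0138). A second, dimmer Pfkp probe gave -0.48 (adjusted p = 0.0515 over all probes, limma).

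The 4 other called enzymes were much brighter probes. Hk1, the hexokinase of most tissues, averaged 7.16 ± 0.21 log2 in tumors and 7.80 ± 0.26 in normal tissue (SD, n = 9 and 4), a difference of -0.68 (limma adjusted p = 0.0096). Only control tumor 3, at 7.56, was above the lowest normal sample, microRNA normal 2 at 7.44. Its 2 other probes gave -0.95 and -1.15.

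Gpi1, the isomerase that makes fructose 6-phosphate, differed by -0.79 (adjusted p = 0.0329) and its 2 other probes, which nearly coincide with it, by -0.94 and -1.01. Aldoa, the aldolase that splits fructose bisphosphate, averaged 7.57 ± 0.32 in tumors and 8.34 ± 0.24 in normal tissue, a difference of -0.76 (adjusted p = 0.0165). Ldha, which converts pyruvate to lactate (NM_001136069, chromosome 7), ranged from 7.26 to 8.11 in tumors (median 7.65), against 8.46 and 8.43 in microRNA normals and 8.01 and 8.40 in control normals, a difference of -0.66 (adjusted p = 0.0215, all limma). Only control tumor 1 exceeded the lowest normal sample in Ldha.

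These 4 probes had processed signals of 27116 to 157998 units, among the brightest of the members, and all 4 lost their call with quantile normalization, where their differences were -0.08 (Hk1), -0.21 (Gpi1), -0.19 (Aldoa) and -0.09 (Ldha). With median scaling they were -0.57, -0.68, -0.65 and -0.55, with adjusted p from 0.069 to 0.105 in limma. Whether the brightness of these probes plays a part in this was not tested. The 2 other Ldha probes, which were dimmer, gave -0.64 and -0.73.

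The 8 enzymes not called included most of the later steps of the pathway. Tpi1 (-0.59, adjusted p = 0.057) and the neuronal enolase Eno2 (-0.83, adjusted p = 0.069) came nearest the threshold. Pgam1 (-0.18), Eno1 (-0.14), Ldhb (-0.23), Aldoc (-0.03) and Pgk1 (-0.01) had smaller differences, with 95% intervals of -0.48 to 0.13, -0.62 to 0.33, -0.99 to 0.54, -0.61 to 0.55 and -0.49 to 0.47. The Pgk1 probe carries coordinates on chromosome 3 while the gene lies on X, so its signal may include a near-identical copy and is uncertain. Hk2, a hexokinase often raised in tumors, lay between 2.16 and 3.90 in tumors (median 3.03) and 2.48 to 3.08 in normal tissue, a difference of 0.28 (95% interval -0.32 to 0.87, limma adjusted p = 0.458).

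**Figure D2:**
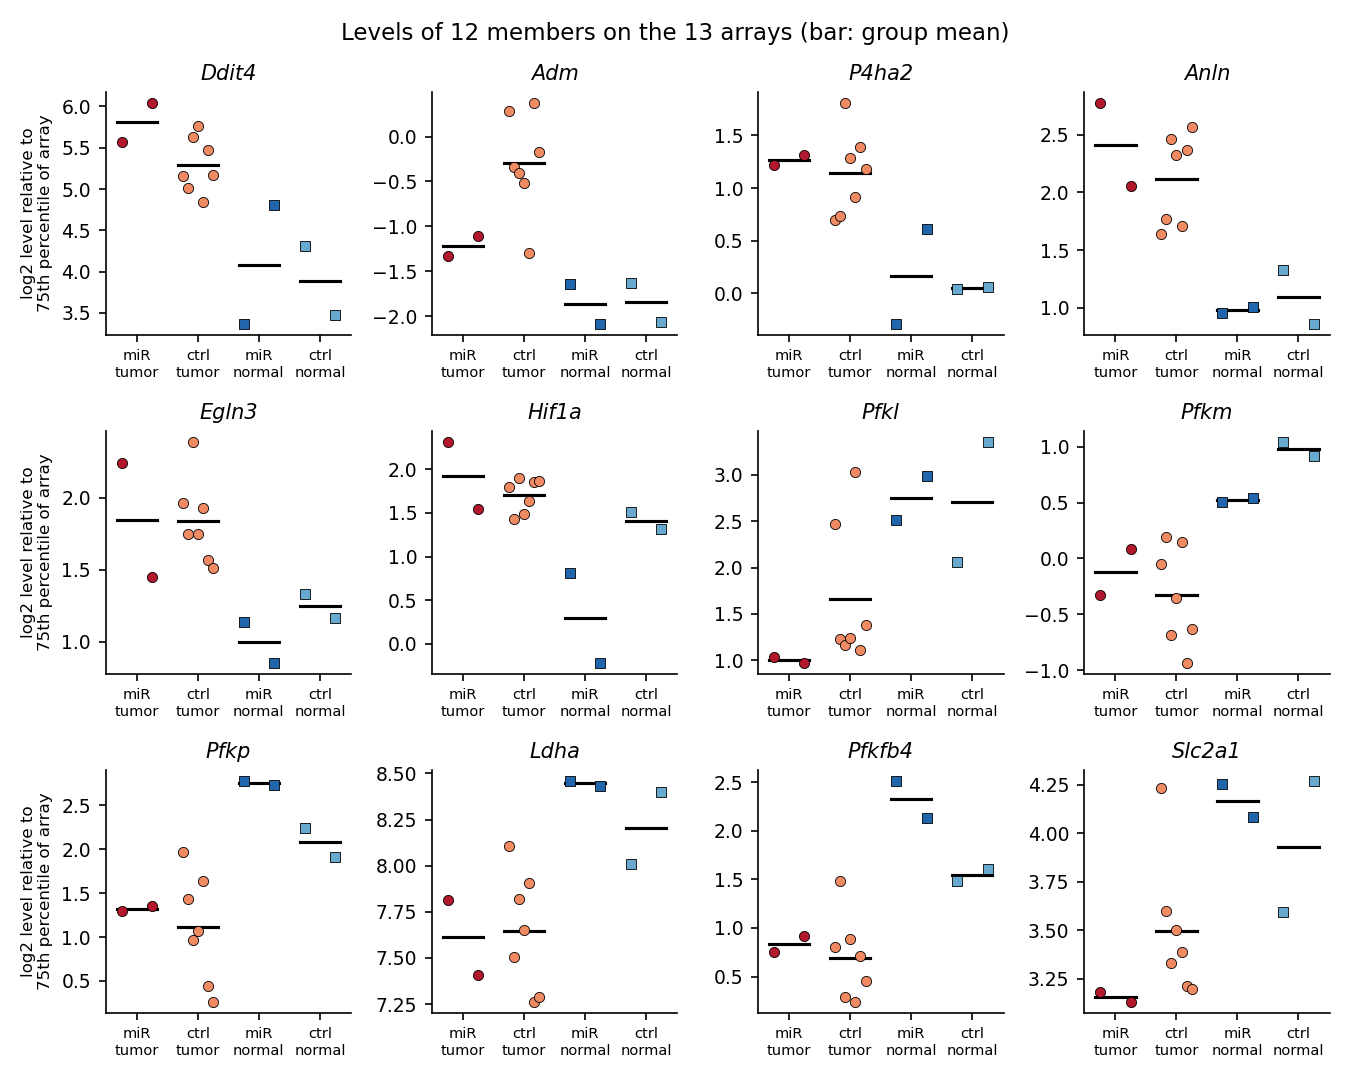
Log2 level, relative to the 75th percentile of the array, of 12 members on each of the 13 arrays, by group, with the group mean as a bar; miR marks microRNA mice, ctrl marks control mice, and vertical axes differ between panels. Ddit4, Adm, P4ha2, Anln and Egln3 are above every normal sample in all 9 tumors, Pfkm is below every normal sample in all 9, and Pfkfb4 likewise except that 1 control tumor and 1 control normal both round to 1.48.

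Among the 5 transporters and switch enzymes, 2 fell and 3 were not called, where 19.7% of all genes were called lower. The median difference of the 5 was -0.22, against -0.11 for all genes. Slc2a1, the main basal glucose transporter, fell by 0.66 on the log2 scale (SE 0.22, limma adjusted p = 0.0388), with 3.13 to 4.23 in tumors (median 3.33), against 4.25 and 4.08 in microRNA normals and 3.59 and 4.27 in control normals. Control tumor 1, at 4.23, was at the level of the normal samples. The call was lost when any one of 8 arrays was left out, and under normexp, quantile normalization and median scaling.

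Pfkfb4, one of the bifunctional enzymes that set fructose 2,6-bisphosphate, the activator of phosphofructokinase, fell (-1.10, SE 0.24, limma adjusted p = 0.00605). It lay between 0.24 and 1.48 in tumors (median 0.75), against 2.51 and 2.13 in microRNA normals and 1.48 and 1.61 in control normals. No tumor exceeded a normal sample, although control tumor 2 and control normal 1 were both at 1.48. It was also called lower under normexp, quantile normalization and median scaling. Its relative Pfkfb3 lay from 0.90 to 2.23 in tumors (median 1.33) and 0.50 to 0.90 in normal tissue, with a difference of 0.68 that was not called (95% interval 0.10 to 1.27, adjusted p = 0.071). Pdk1, a kinase that inhibits pyruvate dehydrogenase, differed by -0.22 (95% interval -0.68 to 0.23), and the transporter Slc2a3 by 0.26 (-0.38 to 0.90), neither called.

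Hif1a rose by 0.82 log2 (SE 0.28, limma adjusted p = 0.0416). Its brightest probe (NM_010431, mm9 chromosome 12 from 75047269 to 75047329) read 2.31 and 1.54 in microRNA tumors and 1.43 to 1.89 in control tumors (median 1.80), against 0.82 and -0.22 in microRNA normals and 1.51 and 1.31 in control normals. The low values were those of the microRNA normals, and control tumors 2 and 4 lay within the range of the control normals. The call was lost without any one of 8 arrays. A second Hif1a probe (AK017853, mm9 chromosome 12 from 75033965 to 75034024) was dim: it was well above background on 8 of 9 tumors and on 0 of 4 normal arrays, at -4.82 to -2.52 in tumors and -6.44 to -5.67 in normal tissue.

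Among the 13 hypoxia-induced genes, 6 rose, 2 fell and 5 were not called, with a median difference of 0.15, against -0.11 for all genes. The share that rose was higher than the 11.7% of all genes called higher, and the share that fell was close to the 19.7% called lower. Without control normal 2, with or without control tumor 3, 3 of them were called higher. With the slide as a block their median was 0.41, and within slides 1 and 2 it was 0.42 and 0.51.

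Ddit4, an inhibitor of mTORC1 signalling induced by hypoxia and other stresses, was the most increased member (NM_029083, mm9 chromosome 10 from 59412486 to 59412545). It read 5.57 and 6.04 in microRNA tumors and 4.85 to 5.77 in control tumors (median 5.18), against 3.37 and 4.80 in microRNA normals and 4.31 and 3.48 in control normals. All 9 tumors were above all 4 normal samples, as 6.89% of all genes were, although control tumor 5 exceeded microRNA normal 2 by little. The log2 difference was 1.53 (SE 0.28, limma adjusted p = 0.00315), a 2.88-fold higher signal.

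Adm, the vasodilator peptide adrenomedullin (NM_009627, mm9 chromosome 7 from 117773088 to 117773147), read -1.33 and -1.11 in microRNA tumors and -1.29 to 0.37 in control tumors (median -0.34), against -1.64 and -2.08 in microRNA normals and -1.63 and -2.06 in control normals. All tumors were above all normal samples, with both microRNA tumors and control tumor 5 nearest to them. The log2 difference was 1.20 (SE 0.30, limma adjusted p = 0.0122).

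P4ha2, a collagen prolyl 4-hydroxylase subunit (NM_011031, mm9 chromosome 11 from 53945032 to 53945091), read 1.22 and 1.32 in microRNA tumors and 0.70 to 1.81 in control tumors (median 1.19), against -0.29 and 0.61 in microRNA normals and 0.04 and 0.06 in control normals. The groups did not overlap, and the log2 difference was 1.10 (SE 0.23, limma adjusted p = 0.00553). Its paralog P4ha1 differed by -0.31 (95% interval -0.83 to 0.20, adjusted p = 0.328).

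Anln, the actin-binding protein anillin of the cleavage furrow, read 2.77 and 2.05 in microRNA tumors and 1.64 to 2.57 in control tumors (median 2.33), against 0.96 and 1.01 in microRNA normals and 1.33 and 0.86 in control normals. The groups did not overlap (difference 1.18, SE 0.24, limma adjusted p = 0.00428). Anln also belongs to cell division, and all 6 tested proliferation markers were called higher in tumors; their part in the Anln result was not tested.

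Egln3, the prolyl hydroxylase most strongly induced by HIF, read 2.24 and 1.45 in microRNA tumors and 1.51 to 2.39 in control tumors (median 1.75), against 1.14 and 0.86 in microRNA normals and 1.33 and 1.16 in control normals. The groups did not overlap (difference 0.69, SE 0.20, limma adjusted p = 0.0222), and a second probe gave 0.65. Kdm3a, a histone H3 lysine demethylase, rose by 0.50 (SE 0.16, adjusted p = 0.0344) with overlapping groups. Its call was lost without any one of 6 arrays.

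The 2 hypoxia-induced genes that fell were Ndrg1, a stress- and differentiation-associated protein (-0.70, SE 0.22, limma adjusted p = 0.0307), and Egln1, the main oxygen-sensing prolyl hydroxylase (-0.36, SE 0.12, adjusted p = 0.0375). Ndrg1 ranged from 3.75 to 4.90 in tumors (median 4.06) and from 4.41 to 5.07 in normal tissue, where control tumors 1 and 3 overlapped with the normal samples. Egln1 was dim and narrow in spread, at -2.22 to -1.92 in tumors and -1.86 to -1.64 in normal tissue, with no overlap. Both calls were lost with median scaling (adjusted p = 0.109 and 0.252).

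The mitophagy receptors Bnip3 (-0.01, 95% interval -0.79 to 0.76) and Bnip3l (0.15, -0.25 to 0.55), the thiol oxidase Ero1l (-0.19, -0.60 to 0.22; Ero1a in RefSeq) and the ankyrin repeat protein Ankrd37 (-0.48, -1.27 to 0.30) were not called. The other probes of Bnip3 and Bnip3l gave differences of -0.09 to 0.25, except for a dim Bnip3 probe, well above background on 10 arrays, at 0.49. Bnip3 varied among tumors from 2.26 in control tumor 5 to 4.40 in control tumor 3.

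Each gene was next centred on its mean over the 13 arrays, and the centred values were averaged within each role to describe single arrays. The 15 glycolytic enzymes averaged -0.41 to 0.14 log2 in tumors (median -0.20) and 0.26 to 0.44 in normal tissue (median 0.39). The 13 hypoxia-induced genes averaged -0.10 to 0.46 in tumors (median 0.07) and -0.30 to -0.18 in normal tissue (median -0.23). The hypoxia-induced minus the glycolytic average, which no shift of a whole array can change, was -0.24 to 0.58 in tumors (median 0.27) and -0.70 to -0.49 in normal tissue (median -0.61). Neither average nor their difference overlapped between tumors and normal tissue, a description of genes and arrays that also gave the calls above, with no test of its own.

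**Figure D3:**
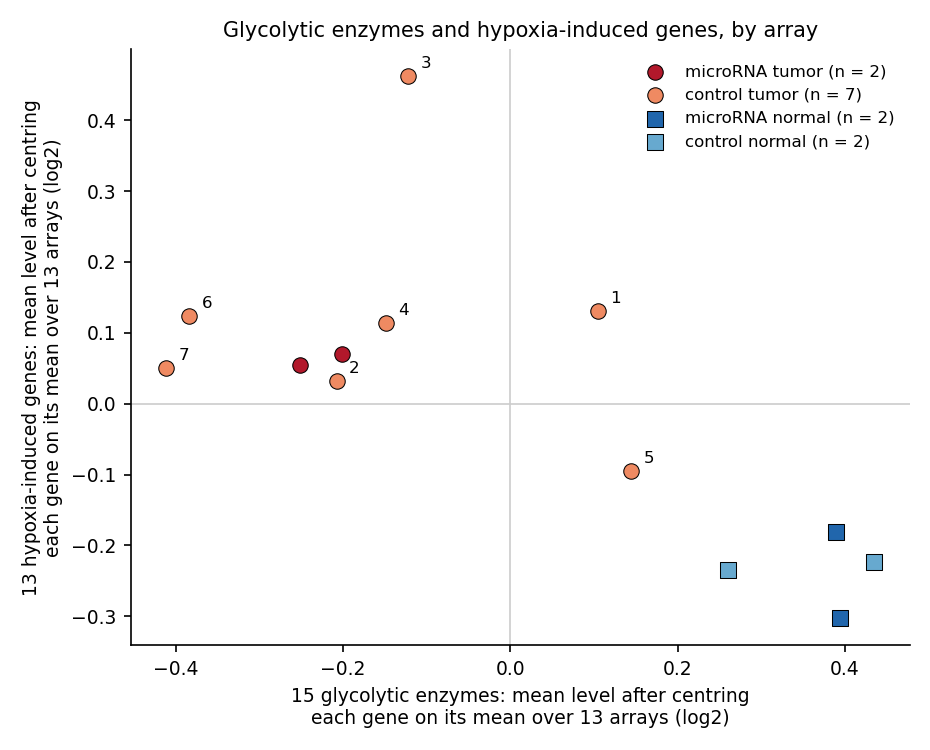
Mean centred level of the 15 glycolytic enzymes (horizontal, log2) against that of the 13 hypoxia-induced genes (vertical, log2), with 1 point per array and numbers marking the control tumors. The 4 normal samples lie at the lower right, between 0.26 and 0.44 on the horizontal axis, and control tumor 5, at 0.14 and -0.10, lies nearest to them.

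The tumors differed among themselves along the glycolytic average. Control tumors 5 and 1 had the highest, at 0.14 and 0.10, and control tumors 7 and 6 the lowest, at -0.41 and -0.38. Control tumor 3 had the highest hypoxia-induced average, at 0.46, and control tumor 5 the lowest, at -0.10. The colonocyte marker average was 4.67 and 5.26 in control tumors 5 and 1, the highest of the 9 tumors, and 1.74 and 0.48 in control tumors 7 and 6, against 5.85 to 6.81 in normal tissue. The order was not the same throughout: control tumor 3 combined a low colonocyte average, 1.26, with a glycolytic average of -0.12, and control tumor 2 a high one, 4.22, with -0.21. Control tumor 4 had 2.43 with -0.15. The part of colonocyte content in the glycolytic averages was not tested. The microRNA tumors had colonocyte averages of 2.80 and 3.32, glycolytic averages of -0.20 and -0.25 and hypoxia-induced averages of 0.07 and 0.05.

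Promoter sequences are shown for 3 of the most increased hypoxia-induced genes and for 3 enzymes that fell, since HIF-1 is known to bind the short core letters ACGTG or GCGTG within hypoxia response elements. They are the 250 bases before the start site in RefSeq, on GRCm38.p6, written 5′ to 3′ on the strand of the gene; capitals mark ACGTG or GCGTG on either strand (CACGT and CACGC when read on the other). The 3 that rose are Ddit4 at chr10:59951771-59952020 (minus strand), Adm at chr7:110627407-110627656 (plus) and P4ha2 at chr11:54100674-54100923 (plus).
Ddit4: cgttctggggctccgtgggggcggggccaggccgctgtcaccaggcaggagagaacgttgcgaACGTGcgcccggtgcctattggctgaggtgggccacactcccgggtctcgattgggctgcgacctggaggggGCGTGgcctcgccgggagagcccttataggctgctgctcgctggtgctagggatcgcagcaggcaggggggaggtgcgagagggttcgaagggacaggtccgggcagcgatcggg
Adm: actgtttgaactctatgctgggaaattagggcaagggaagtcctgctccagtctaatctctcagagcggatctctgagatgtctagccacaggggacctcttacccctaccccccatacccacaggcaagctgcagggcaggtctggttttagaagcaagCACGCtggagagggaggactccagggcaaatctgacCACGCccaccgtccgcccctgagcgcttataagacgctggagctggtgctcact
P4ha2: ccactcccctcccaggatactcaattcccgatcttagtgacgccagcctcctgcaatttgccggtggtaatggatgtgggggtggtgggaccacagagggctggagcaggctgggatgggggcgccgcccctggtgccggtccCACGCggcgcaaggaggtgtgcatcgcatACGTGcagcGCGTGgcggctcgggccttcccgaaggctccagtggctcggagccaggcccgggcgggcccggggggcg

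The 3 that fell are Pfkl at chr10:78009808-78010057 (minus), Pfkp at chr13:6648772-6649021 (minus) and the first listed Ldha promoter at chr7:46845554-46845803 (plus). The capital stretches CACGTG in Ldha hold ACGTG on both strands and are counted on each; they are also the E-box letters bound by other factors.
Pfkl: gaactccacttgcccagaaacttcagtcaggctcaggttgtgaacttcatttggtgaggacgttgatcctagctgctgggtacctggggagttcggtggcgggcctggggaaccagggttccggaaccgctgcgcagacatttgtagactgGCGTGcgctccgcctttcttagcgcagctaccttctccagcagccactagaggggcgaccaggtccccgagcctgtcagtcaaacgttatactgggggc
Pfkp: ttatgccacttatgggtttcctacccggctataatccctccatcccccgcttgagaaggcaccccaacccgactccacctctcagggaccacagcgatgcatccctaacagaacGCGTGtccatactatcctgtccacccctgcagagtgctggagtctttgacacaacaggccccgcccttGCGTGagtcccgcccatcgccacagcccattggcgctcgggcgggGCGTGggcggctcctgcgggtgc
Ldha: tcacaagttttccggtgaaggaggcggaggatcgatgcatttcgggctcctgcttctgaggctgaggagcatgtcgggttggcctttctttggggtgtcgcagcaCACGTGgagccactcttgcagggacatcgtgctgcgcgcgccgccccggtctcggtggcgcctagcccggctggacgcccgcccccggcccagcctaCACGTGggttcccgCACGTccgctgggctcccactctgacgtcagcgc

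The core letters were present on both sides of the change. Of the 34 members, 31 matched the promoter table, with 45 promoters, and 36 of these (80.0%) held at least 1 match, against 38.6% of 32851 promoters of the same length in the whole table. Counted by gene, the letters occurred in 7 of 7 members that rose, in 9 of 10 matched members that fell and in 12 of 14 matched members not called, against 41.5% of the 27025 genes in the table. All 11 matched hypoxia-induced genes and 12 of 15 glycolytic enzymes held a match. The whole table was not matched to the members in base composition. Gpi1, which fell, held no match in its promoter and is not among the sequences shown. A match of 5 letters is a description of the sequence and does not show a binding site.

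The same comparison was made within each group of mice, in a fit of 4 group means. In microRNA mice (2 tumors and 2 normal samples) 1 member was called, Hif1a, higher by 1.63 log2 (SE 0.35, limma adjusted p = 0.031), where 3.18% of all genes were called, 1.42% higher and 1.76% lower. No member was called without microRNA tumor 1, or without control normal 2 and control tumor 3 together, and 2 were without control tumor 1, 2, 3 or 5, which enter through the shared spread. With the file name number as a random block, under which the correlation was 0.303, 5 members were called (Hif1a, Ddit4, Anln, Pfkfb4 and Ndrg1), and with the slide as a block 4 (Hif1a, Anln, Egln3 and Pfkfb4). With median scaling Ddit4 was called in place of Hif1a, and no member was called when only the 4 microRNA arrays entered the fit. Over 29 alternative runs the Hif1a difference in microRNA mice ranged from 1.11 to 2.53, and its call was lost in 8. In control mice (7 tumors and 2 normal samples) 5 members rose, Adm (1.55), Ddit4 (1.40), P4ha2 (1.09), Anln (1.02) and Kdm3a (0.65), and 2 fell, Pfkm (-1.31) and Hk1 (-0.80), where 19.1% of all genes were called, 8.18% higher and 10.9% lower. No member was called without control normal 1, without control normal 2, or without control normal 2 and control tumor 3 together, and 4 members were called without control tumor 4, 6 or 7. Both control normals lay on slide 2 and 6 of the 7 control tumors on slide 1. With the slide as a block 4 members were called, Pfkm and Anln among the 7 above and also Eno2 and Egln3, and the other 5 of the 7 were not. Median scaling kept 4 of the 7 calls (Adm, Ddit4, P4ha2 and Pfkm).

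Of the 7 members called in control mice, 3 had differences at least as large in microRNA mice without being called there. Ddit4 differed by 1.72 in microRNA mice (adjusted p = 0.070) and 1.40 in control mice (adjusted p = 0.027), Anln by 1.43 (0.067) and 1.02 (0.039), P4ha2 by 1.10 (0.130) and 1.09 (0.033), all by limma. The other 4 had smaller differences in microRNA mice than in control mice: Adm 0.64 and 1.55, Kdm3a 0.27 and 0.65, Pfkm -0.65 and -1.31, and Hk1 -0.50 and -0.80. Pfkl differed by -1.75 in microRNA mice and -1.04 in control mice, and Pfkp by -1.43 and -0.97, none of them called. The median over the glycolytic enzymes was -0.64 in microRNA mice and -0.55 in control mice, where all genes had medians of -0.14 and -0.09. Over the hypoxia-induced genes it was 0.27 and -0.03.

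**Figure D4:**
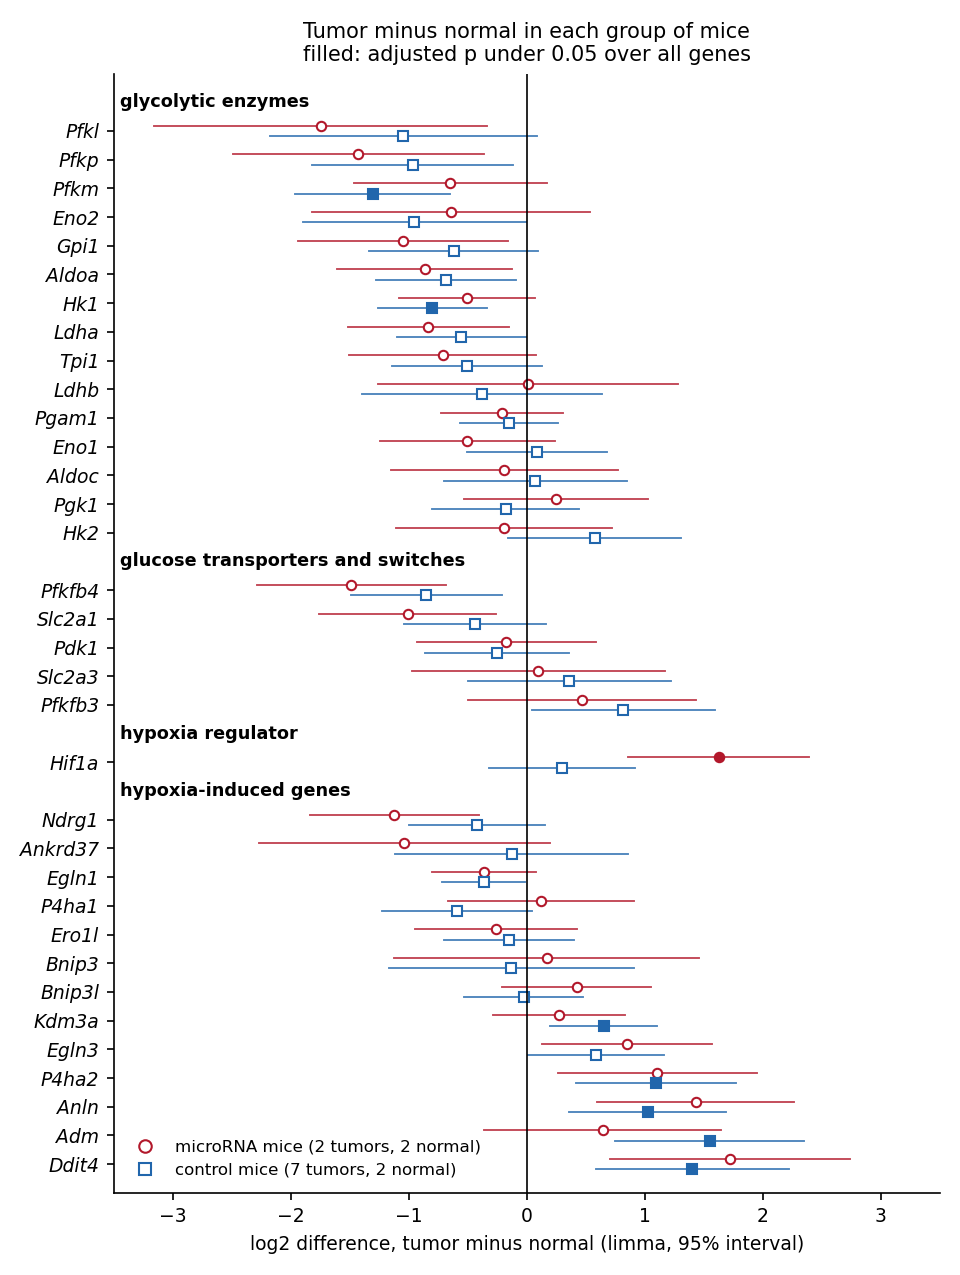
Log2 difference between tumor and normal tissue, with its 95% interval, in microRNA mice (circles, 2 tumors and 2 normal samples) and in control mice (squares, 7 tumors and 2 normal samples) for the 34 members; filled symbols passed an adjusted p under 0.05 over all genes. Hif1a is the only filled circle, at 1.63, with the control mice at 0.30, and the intervals of the 2 groups of mice overlap for all 34 members.

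The tumor effect was then compared between the groups of mice by the difference of the 2 effects. No member was called, 1 member (Hif1a) had an unadjusted p under 0.05 and 0.28% of all genes were called. Hif1a had the largest difference, 1.33 log2 higher in microRNA mice (95% interval 0.34 to 2.31, unadjusted p = 0.0126, limma adjusted p = 0.636). Its microRNA tumors, at 2.31 and 1.54, overlapped with the control tumors, at 1.43 to 1.89, while the microRNA normals, at 0.82 and -0.22, lay below the control normals, at 1.51 and 1.31. The dim second probe was not well above background on any normal array, so its tumor effect could not be compared between the groups of mice.

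MicroRNA and control mice were compared directly within each tissue, the question that the treatment poses for these genes. In tumors no member was called and 1 had an unadjusted p under 0.05 in limma, where 0.00394% of all genes were called. That member was Adm, at -1.33 and -1.11 in microRNA tumors and -1.29 to 0.37 in control tumors, a difference of -0.92 (95% interval -1.73 to -0.12, adjusted p = 1.00), with control tumor 5 within the range of the microRNA tumors. The median difference was -0.04 over the glycolytic enzymes and -0.05 over the hypoxia-induced genes, against -0.0023 for all genes.

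In normal tissue no member was called either and 1 had an unadjusted p under 0.05, where 0.532% of all genes were called. That member was Hif1a, lower by 1.11 log2 in microRNA normals (95% interval -1.88 to -0.34, unadjusted p = 0.0086, limma adjusted p = 0.501). Pfkfb4 was 2.51 and 2.13 in microRNA normals and 1.48 and 1.61 in control normals, a difference of 0.78 (95% interval -0.02 to 1.58, adjusted p = 0.922). The squamous list averaged -3.60 and -3.68 in microRNA normals and 1.23 and -0.31 in control normals, and the skeletal muscle list -3.22 and -3.05 in microRNA normals and -1.14 and -0.42 in control normals; their part in these differences was not tested. With 2 microRNA arrays in each tissue, the intervals of members in these comparisons were wide, and a difference below the threshold does not show that the groups were alike.

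Other genes of glucose and pyruvate metabolism, from a list of 29 of which 27 were tested, were read in the comparison over both groups of mice. Of these 3 rose, 9 fell and 15 were not called, with a median difference of -0.43. Of all genes, 11.7% were called higher and 19.7% lower, and their median was -0.11. Among the largest decreases were those of Hkdc1, a hexokinase-like gene (-6.25), the fructose transporter Slc2a5 (-3.09), Pck1, the cytosolic enzyme that starts gluconeogenesis from oxaloacetate (-2.88), Pdk4, a pyruvate dehydrogenase kinase (-2.24), and the insulin-responsive transporter Slc2a4 (-2.04), with limma adjusted p from 0.008 to 0.0401. The lactate exporter Slc16a3 rose by 1.46 (adjusted p = 0.0138), the hexokinase Hk3 by 0.74 (0.0298) and Pfkfb1 by 0.60 (0.0157). Hkdc1 averaged -3.14 ± 0.06 in microRNA tumors and -2.03 ± 3.12 in control tumors, against 5.16 ± 0.36 in microRNA normals and 2.90 ± 1.43 in control normals (SD), so the control tumors spread widely.

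Of the other hypoxia genes, from a list of 30 of which 28 were tested, 4 rose, 6 fell and 18 were not called, with a median of 0.10. These shares were close to those of all genes, of which 11.7% were called higher and 19.7% lower. Lox, the collagen cross-linking lysyl oxidase, was not well above background on any normal array and was higher in tumors by at least 4.99-fold (limma adjusted p = 0.000644). Here the bound sets the tumor mean against the lowest signal that counts as well above background on each normal array. The adjusted p printed with a bound tests the difference of the measured signals, not the bound. The early response gene Ier3 rose by 2.65 (adjusted p = 0.00029) and Angptl4, an inhibitor of lipoprotein lipase, by 1.05 (0.00426). Stc1, stanniocalcin 1, was not well above background on any normal array or on 2 tumors, and tumors were at least 1.17-fold higher (0.00842). The mitochondrial genes Fam162a (-2.16) and Higd1a (-1.96), Cited2, a competitor of HIF for its coactivators (-0.89), Ccng2, a cyclin (-0.77), the prolyl hydroxylase Egln2 (-0.61) and Arnt, the partner of HIF-1 alpha (-0.52), fell, with adjusted p from 0.00763 to 0.0359. The angiogenic factor Vegfa (0.65, adjusted p = 0.0508) and the carbonic anhydrase Car9 (-1.10, 0.112), both classic HIF targets, were not called and were named after their values were seen.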

How the data were processed

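Labels state that 35 ng of total RNA was amplified, labelled with Cy3 and run on 1-colour mouse arrays. Image extraction used Feature Extraction 10.7.3.1, per the file headers. The deposited processed signal is an intensity, with background already removed and arrays not scaled to each other; the deposited value table of the series was identical to it.

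Control spots (3671) and spots with a uniformity or outlier mark were dropped, spots of a probe were averaged as log2, and the log2 75th percentile of the array was subtracted. Probes well above background on at least 2 of 13 arrays were kept (35189), and the brightest per gene was taken (25393 genes). limma 3.58.1 (lmFit, eBayes; R 4.3.3) was run on all 13 arrays, which share 1 estimate of the spread, with Benjamini-Hochberg adjustment at 0.05. The procedure was tested on simulated data. The members, lists and tests were chosen with earlier results of these data known. All 34 members are named. Of the other glycolysis and hypoxia genes, the called ones with the largest differences are named, up to 6 in each direction (1 of them is not reported here), and of the marker lists those whose mean differs by over 1 log2 between groups, with their first 2 genes; the macrophage list was added to these.

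Pairing was checked by correlating the deviations of same-numbered samples from their group means over all genes. The r ran from -0.19 to 0.42 (0.42 between microRNA tumors and normals). Not every pair was over 0.1, the limit set, and the numbers were not taken as pairs. In groups of 2 arrays the deviations mirror each other, so both replicates give the same r. Same-numbered microRNA tumors and normals also share a slide. The check therefore can neither show nor exclude shared animals. The correlation within the number in an array's file name was 0.303. With that number as a random block, 2 of 102 member results in the tumor against normal comparisons lost a call and 5 gained one. Alternatives were normexp (offset 50), quantile and median scaling, no scaling, other filters and probe rules, the slide and replicate number as blocks, each slide alone, other spread estimates, a 2-fold threshold, and leaving out arrays. Probe coordinates are those of the files, on mm9; promoters are RefSeq's on GRCm38.p6. All 34 members matched RefSeq by symbol or synonym. Python 3.11.15 with matplotlib 3.10.9 made the plots.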

Additional observations from a re-analysis of the deposited data

Results flagged for a closer look

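In 2 of the 34 members, 1 of the 7 control tumors stood apart from the other 6 by a large share of the group's range. Slc2a1 was 4.23 log2 in control tumor 1, and the next highest control tumor was at 3.60. Slc2a3 was -1.07 log2 in control tumor 6, and the next highest was at -1.78. Chance alone gives such a gap in a small share of groups. With 34 members looked at, both of these gaps may be due to chance. The groups of 2 arrays were too small for this check.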

How the results depend on the processing

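Over both groups of mice (18 called, 7 glycolytic enzymes lower, 6 hypoxia-induced genes higher, medians -0.66 and 0.15), leaving out 1 array gave 7 to 19 called, 3 to 8 enzymes lower, 3 to 6 hypoxia-induced genes higher, and medians of -0.68 to -0.58 and 0.04 to 0.23. The lowest counts came without control normal 2. In control mice (7 called) leaving out 1 array gave 0 to 8, with 0 without either control normal, and in microRNA mice (1 called) 0 to 2.

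Quantile normalization gave 4 enzymes lower and medians of -0.18 and 0.35, and 3 called in microRNA mice. Median scaling gave 10 called over both groups of mice, 3 enzymes lower and 4 called in control mice. The values with no scaling between arrays, where the median of all genes is 0.89, gave 0 enzymes lower, 10 hypoxia-induced genes higher, medians of 0.33 and 1.14, 14 called in control mice and 6 in microRNA mice. There the sign turned for 19 of 34 members over both groups of mice, 21 in control mice and 13 in microRNA mice. Those of them called with or without scaling were, over both groups of mice, Hk1 (0.31), Gpi1 (0.21), Aldoa (0.24), Aldoc (0.97), Pgk1 (0.98), Pgam1 (0.82), Eno1 (0.85), Ldha (0.33), Ldhb (0.77), Slc2a1 (0.33), Pdk1 (0.77), Egln1 (0.63), Bnip3 (0.98), Ndrg1 (0.30) and Ero1l (0.80), and in control mice Hk1 (0.25), Pgk1 (0.88), Pgam1 (0.90) and Bnip3l (1.03), with none in microRNA mice. The shift of all genes between unscaled arrays adds to each of these.

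With the slide as a block the hypoxia-induced median was 0.41, with 4 called in control mice and 4 in microRNA mice. Slide 1 alone gave 0 called, 0 enzymes lower, 0 hypoxia-induced genes higher, a hypoxia-induced median of 0.42 and 0 called in microRNA mice. Slide 2 alone gave 8 called, 3 enzymes lower, a median of 0.51, 2 called in control mice and 0 in microRNA mice. Without control normal 2 and control tumor 3 together, 7, 3 and 3 were called over both groups, and 0 in control and in microRNA mice; a test against a 2-fold change called 0 in each. In microRNA mice normexp gave 4, no filter or a filter by group 2, the file name number as a random block 5, a trended and robust spread 3, and the compared groups alone 0.

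With the replicate number as a block, 2 members were called over both groups of mice, 1 enzyme lower and 1 hypoxia-induced gene higher, 0 in control mice and 2 in microRNA mice. The labels do not say that a number marks a shared animal. The deviations of same-numbered samples correlated between microRNA tumors and microRNA normals (r = 0.42) but not between control tumors and control normals (r = -0.14 and -0.09). These correlations can neither show nor exclude shared animals. Control tumors 3 to 7 are the only arrays with their numbers, so under this block they add nothing to the comparison of tissues. A call lost under this block therefore does not tell whether an effect is weaker.

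No member was called in microRNA against control tumors, in microRNA against control normal tissue or in the difference of the tumor effects under any alternative run. The cause of the changes between runs was not tested. The smaller sets hold fewer arrays, and the values with no scaling carry the shift named above.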
